A study of Mus musculus with 15 samples.

Results

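The genes described here encode the protein subunits of the mitochondrial ribosome and the machinery that carries proteins into mitochondria, taken as every gene whose symbol begins with Mrpl, Mrps, Timm or Tomm. The array held 147 probes for 99 such genes, among 16593 genes with a symbol. Of the 99 genes, 87 were above background, among 8392 such genes in all. Newborn mouse hippocampus (P0) was measured in 3 groups of 5 arrays, all from laser-microdissected CA3, the hippocampal field of pyramidal neurons that receives input from the dentate gyrus. KO outer is the external, and KO inner the internal, part of CA3 of mutant mice that lack doublecortin (Dcx), a microtubule-associated protein of migrating neurons. WT is CA3 of wild-type mice, taken as a single sample per brain. The outer and inner samples are pairs taken from 5 KO animals, and with the 5 WT mice 10 animals were studied on 15 arrays. Dissected material was pooled within a brain before RNA extraction, and the labels give neither strain, sex nor the allele.

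Mitochondria hold a small genome whose messages, all for core subunits of oxidative phosphorylation, are read by a ribosome of their own, made of a large subunit (Mrpl) and a small subunit (Mrps) of nuclear-encoded proteins. Nearly all other mitochondrial proteins are made in the cytosol and enter through the translocase of the outer membrane (TOM, Tomm genes), after which the TIM23 complex sends them to the matrix or inner membrane and the TIM22 complex inserts carriers into the inner membrane. Small TIM proteins escort hydrophobic precursors between the membranes. In neurons, the respiratory chain that depends on both machineries supplies most of the ATP.

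These genes were broadly expressed in newborn CA3. Above background meant that a probe exceeded nearly all negative control entries (detection p under 0.01) on at least 5 of the 15 arrays, and 87.9% of the members passed, against 50.6% of all genes with a symbol. By role, 42 of 47 large subunit genes passed, as did 27 of 28 small subunit genes. Among the import genes the numbers were 4 of 6 for TOM, 5 of 6 for TIM23, 2 of 3 for TIM22 and 5 of 6 for the small TIM proteins. Of 3 further genes whose symbols fit but whose proteins work elsewhere, Tomm34, a cytosolic partner of Hsp70 and Hsp90, and Timmdc1, an assembly factor of respiratory complex I, passed. Detection was nearly uniform across groups, with 83 of the 87 detected on all 15 arrays (95.4%, against 80.9% of all genes above background).

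The 12 genes below background included the central import channel genes. They were Tomm40, the pore of TOM, Tomm20, a presequence receptor, Timm23 and Timm22, the pores of their complexes, with Timm8a2, Mrpl15, Mrpl19, Mrpl21, Mrpl32, Mrpl39, Mrps14 and Mrps36. By its brightest probe, Tomm40 was detected on 1 KO outer and 3 WT arrays, Timm22 on 3 KO outer and 1 KO inner, Mrpl15 on 1 KO outer and 3 KO inner, and Mrpl39 on 2 KO outer and 1 KO inner arrays. The other 8 were detected on none, which says nothing of whether the messages were present, and none of the 12 was compared between groups. Another 4 genes passed with gaps. Tomm22, the central receptor of TOM, was detected on 4 KO outer, 4 KO inner and 2 WT arrays. Mrps27 was detected on 3, 4 and 3 arrays in the same order, and Mrpl45, a large subunit protein near the exit of the nascent chain, on 2, 1 and 2. Mrps15 was missed on WT array 4 alone. The probes of Mrps5, Tomm20 and Mrps36 carry a definition that names a similar locus, so their signal may include a near copy.

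Levels below are background-corrected and quantile-normalized log2 signals, and because each probe binds with its own strength, levels are compared between arrays and never between genes. Within each group the brightest gene of every role varied little. Mrps24, a small subunit protein, spanned 11.60 to 11.92 on KO outer, 11.50 to 11.97 on KO inner and 11.78 to 12.09 on WT arrays. Mrpl23, of the large subunit, spanned 11.41 to 11.64, 11.36 to 11.60 and 11.53 to 11.87 in the same order. The intervals of the groups overlapped for both genes. Timm8b, a small TIM protein, spanned 12.09 to 12.22 on KO outer, 12.12 to 12.36 on KO inner and 12.18 to 12.37 on WT arrays. For Timm17a, a core subunit of TIM23, the corresponding spans were 10.80 to 10.99, 10.81 to 11.03 and 10.89 to 11.03. Tomm7, a small TOM subunit, lay between 10.36 and 10.62 on KO outer, between 10.33 and 10.72 on KO inner and between 10.06 and 10.44 on WT arrays. Timm29, the TIM22 subunit found in animals, lay at 9.89 to 10.29, 10.03 to 10.46 and 10.15 to 10.27, again overlapping. The median over the 87 members was 9.44 to 9.59 per KO outer array, 9.37 to 9.50 per KO inner array and 9.51 to 9.63 per WT array.

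Several facts of the whole data set bear on these values. Dcx itself read 10.54 to 10.74 on KO outer and 10.36 to 10.61 on KO inner arrays, below the 11.76 to 12.07 of WT, as labelled. All 8 CA3 field markers and 6 of 8 pyramidal neuron markers were measured, with mean levels per array of 8.06 to 8.83 and 8.77 to 9.65 over the 15 arrays. In a further table of scaled values, the 8 arrays of KO animals 1 to 4 (the shifted arrays) departed from a scaling by each array's median and SD. The 7 arrays of KO animal 5 and WT (the unshifted arrays) did not. The largest departure was 1.12 on each shifted KO inner and 2.29 on each shifted KO outer array. It is read here as a shift made by the authors, which no label states. Bright control entries also lay 3.86 to 4.12 log2 units above the negative controls on the shifted arrays and 2.83 to 3.10 above them on the unshifted ones. The labels name no batch, and for KO animals 1 to 4 genotype and array set cannot be told apart. Skeletal muscle transcripts, 9 of 10 markers measured, averaged 5.31 to 6.0 on KO outer, 5.35 to 9.46 on KO inner and 5.54 to 11.20 on WT arrays. They were high in KO inner 1, 2 and 5 and in WT 1 to 3, and 1 of the 9 was detected on no KO outer array. Bone and cartilage transcripts, 6 of 8 measured, averaged 4.62 to 6.89, 4.71 to 10.32 and 4.82 to 9.45 in the same order of groups and were high in KO outer 1, KO inner 1, 2 and 5, and WT 1 and 3. A lower signal in such bulk samples cannot separate fewer cells of a type from less RNA per cell.

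Many genes of mitochondrial function carry promoter sites for NRF1, for ETS factors such as GABPA, and for YY1. Promoter sequence, 250 bases before to 50 bases after the start from RefSeq (GRCm38.p6), was at hand for 88 of the 99 members, with 96 promoters. The ETS sequence CCGGAAGT occurred on either strand in 19.8% of member promoters, against 3.89% of all 32851 promoters and 8.01% of the 8981 promoters of genes above background. The NRF1 core GCGCATGC occurred in 9.38% of member promoters, against 2.71% and 5.32%. The YY1 sequence AAGATGGCG occurred in 9.38%, against 1.40% and 3.02%. At least 1 of the 3 was present in 36.5% of member promoters, against 7.57% and 15.4%. These are matches of letters and not shown to be bound.

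Of the 34 members that passed the test in any comparison below, 30 had a window of the 100 bases before the start that could be shown, and in 7 genes that window held 1 of the sequences. They are printed 5′ to 3′ on the strand of the gene, with the match in capitals, to show how close to the start it lies. The match is the ETS sequence in Tomm70a, Mrpl43, Mrpl51, Mrps22 and Mrps26, where it is read on the other strand in Mrps26, and the NRF1 core in Mrpl22 and Mrpl17.
Tomm70a, chr16:57121614-57121713, plus strand: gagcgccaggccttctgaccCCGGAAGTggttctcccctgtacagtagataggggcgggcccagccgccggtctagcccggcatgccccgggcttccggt
Mrpl22, chr11:58171564-58171663, plus strand: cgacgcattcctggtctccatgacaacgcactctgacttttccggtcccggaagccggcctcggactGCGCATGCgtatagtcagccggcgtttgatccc
Mrpl43, chr19:45006443-45006542, minus strand: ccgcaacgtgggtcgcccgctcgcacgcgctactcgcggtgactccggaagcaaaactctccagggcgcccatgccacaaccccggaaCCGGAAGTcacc
Mrpl17, chr7:105811088-105811187, minus strand: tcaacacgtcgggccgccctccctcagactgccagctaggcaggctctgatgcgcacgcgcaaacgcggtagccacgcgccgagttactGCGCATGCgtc
Mrpl51, chr6:125192100-125192199, plus strand: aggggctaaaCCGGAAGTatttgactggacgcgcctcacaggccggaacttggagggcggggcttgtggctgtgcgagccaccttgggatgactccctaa
Mrps22, chr9:98601680-98601779, minus strand: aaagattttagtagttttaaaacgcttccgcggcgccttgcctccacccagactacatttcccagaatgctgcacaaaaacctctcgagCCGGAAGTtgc
Mrps26, chr2:130563657-130563756, plus strand: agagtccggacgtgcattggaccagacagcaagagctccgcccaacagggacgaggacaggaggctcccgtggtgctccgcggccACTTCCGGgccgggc
The match began 11 bases before the start in Mrpl17 and Mrps22, 12 in Mrpl43, 15 in Mrps26 and 33 in Mrpl22. In Tomm70a it began 80 and in Mrpl51 90 bases before the start. The 7 genes did not share a direction of call. Tomm70a, Mrpl22, Mrpl43 and Mrps26 were called higher and Mrpl51 and Mrps22 lower in KO inner CA3 than in WT. Mrpl17 was lower in KO outer than in KO inner CA3. Tomm70a, Mrpl22 and Mrpl43 read higher on every shifted array than on any unshifted array, so genotype and array set cannot be told apart in their rise. A further probe of Mrpl51 gave -0.19 and was not called.

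The comparison of the KO layers asked whether bulk samples of the external and internal CA3 layer, which are separate in the mutant, differ in these genes. Few of the genes differed, and by little. KO outer minus KO inner, fitted with the animal as a block in limma, gave 8 called members of 87 (9.2%; adjusted p under 0.05 over all probes), 4 higher and 4 lower in the outer layer. Over all genes above background 21.1% were called, 9.62% higher and 11.5% lower. At an unadjusted p under 0.05 the members numbered 16 (18.4%), against 36.7% of all genes. The median difference was -0.01 over the members and 0.03 over all genes. With each array centred on its median and no background correction (median centring), these medians were 0.13 and 0.09 and the 8 differences kept their sign. There limma called 0 members, with 6 at an unadjusted p under 0.05, and the share of all genes called is not given. No member differed by 1 log2 unit, and the range was -0.37 to 0.41.

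**Figure D1:**
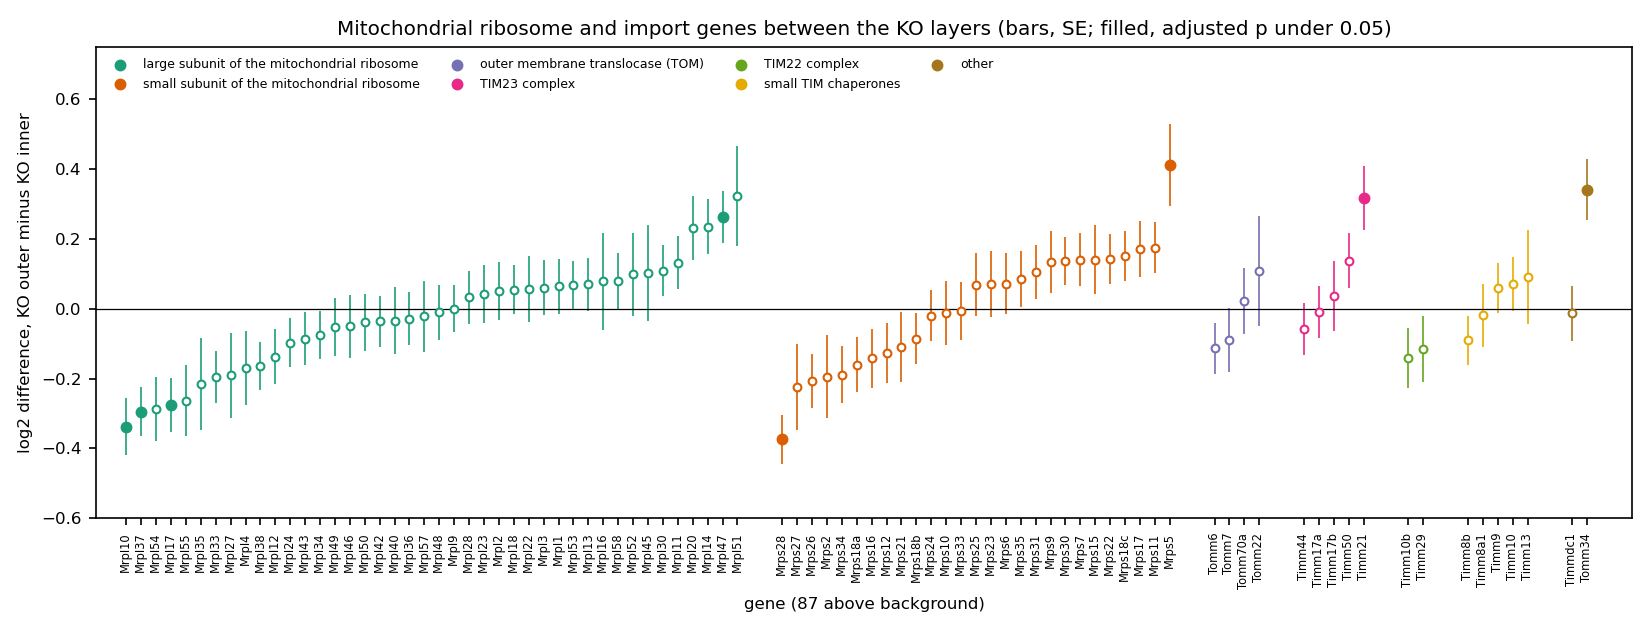
Log2 difference of each of the 87 members above background, KO outer minus KO inner, by role on the horizontal axis, with SE as bars and called members filled. Values lie between -0.37 and 0.41, with 4 called members above 0 and 4 below.

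Of the 4 members that fell, 3 belong to the large subunit. Mrps28, a small subunit protein, was 7.84, 7.74, 7.46, 7.41 and 7.42 on the KO outer arrays of animals 1 to 5, against 8.16, 8.25, 7.78, 7.74 and 7.80 on their KO inner arrays. The outer array was the lower one in 5 of 5 animals although the ranges of the groups overlapped, and the difference of -0.37 ± 0.07 (SE, limma adjusted p = 0.0112) had the lowest p among the members. WT arrays, at 7.57 to 8.21, covered both layers.

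Mrpl10, the protein that anchors the factor-binding stalk of the large subunit, was 9.73, 9.69, 9.93, 9.82 and 10.08 on KO outer arrays, against 10.11, 10.21, 10.34, 9.96 and 10.32 on KO inner arrays. Lower in the outer layer of 5 of 5 animals with overlapping ranges, it differed by -0.34 ± 0.08 (adjusted p = 0.0266), and a further probe gave -0.33 (adjusted p = 0.0280). Mrpl37, a large subunit protein without a bacterial counterpart, was 10.31, 10.01, 9.72, 9.95 and 9.88 on KO outer arrays, against 10.57, 10.30, 10.10, 10.15 and 10.21 on KO inner arrays. Its difference was -0.29 ± 0.07 (adjusted p = 0.0245; 5 of 5 animals, ranges overlapping), while its other probe gave -0.06 (adjusted p = 0.645). Mrpl17, a large subunit protein shared with bacteria, was 9.65, 9.51, 9.60, 9.47 and 9.68 on KO outer arrays, against 10.06, 9.88, 9.76, 9.75 and 9.83 on KO inner arrays. Every outer array lay below every inner array, with a difference of -0.28 ± 0.08 (adjusted p = 0.0411).

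The 4 members that rose in the outer layer came from 4 different roles. Mrps5, a small subunit protein at the messenger RNA entry, was 8.44, 7.89, 7.81, 7.84 and 8.02 on KO outer arrays, against 7.62, 7.33, 7.76, 7.64 and 7.61 on KO inner arrays. The ranges did not overlap, but animals 1 and 2 carried most of the difference of 0.41 ± 0.12 (adjusted p = 0.0463), and the mean difference of animals 3 and 4 was 0.13. Its other probe gave 0.18 (adjusted p = 0.254), and since the first probe is defined by a similar locus, its call is uncertain.

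Tomm34, the Hsp70 and Hsp90 partner, was 9.92, 9.67, 9.45, 9.55 and 9.78 on KO outer arrays, against 9.39, 9.23, 9.28, 9.42 and 9.36 on KO inner arrays. All outer arrays were above all inner arrays, the difference was 0.34 ± 0.09 (adjusted p = 0.0325), and a further probe gave 0.35 (adjusted p = 0.0433). Timm21, which links TIM23 to TOM and to respiratory chain assembly, was 8.75, 8.54, 8.79, 8.62 and 8.73 on KO outer arrays, against 8.60, 7.87, 8.52, 8.38 and 8.46 on KO inner arrays. It was higher in the outer layer of 5 of 5 animals with overlapping ranges, by 0.32 ± 0.09 (adjusted p = 0.0482), and 2 further probes gave 0.44 and 0.27, with adjusted p of 0.0295 and 0.0887. Mrpl47, a large subunit protein near the tunnel exit, was 9.52, 9.67, 9.73, 9.54 and 9.51 on KO outer arrays, against 9.34, 9.36, 9.30, 9.32 and 9.34 on KO inner arrays. The layers did not overlap, and the difference was 0.26 ± 0.07 (adjusted p = 0.0442), while its other probe gave 0.14 (adjusted p = 0.335).

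**Figure D2:**
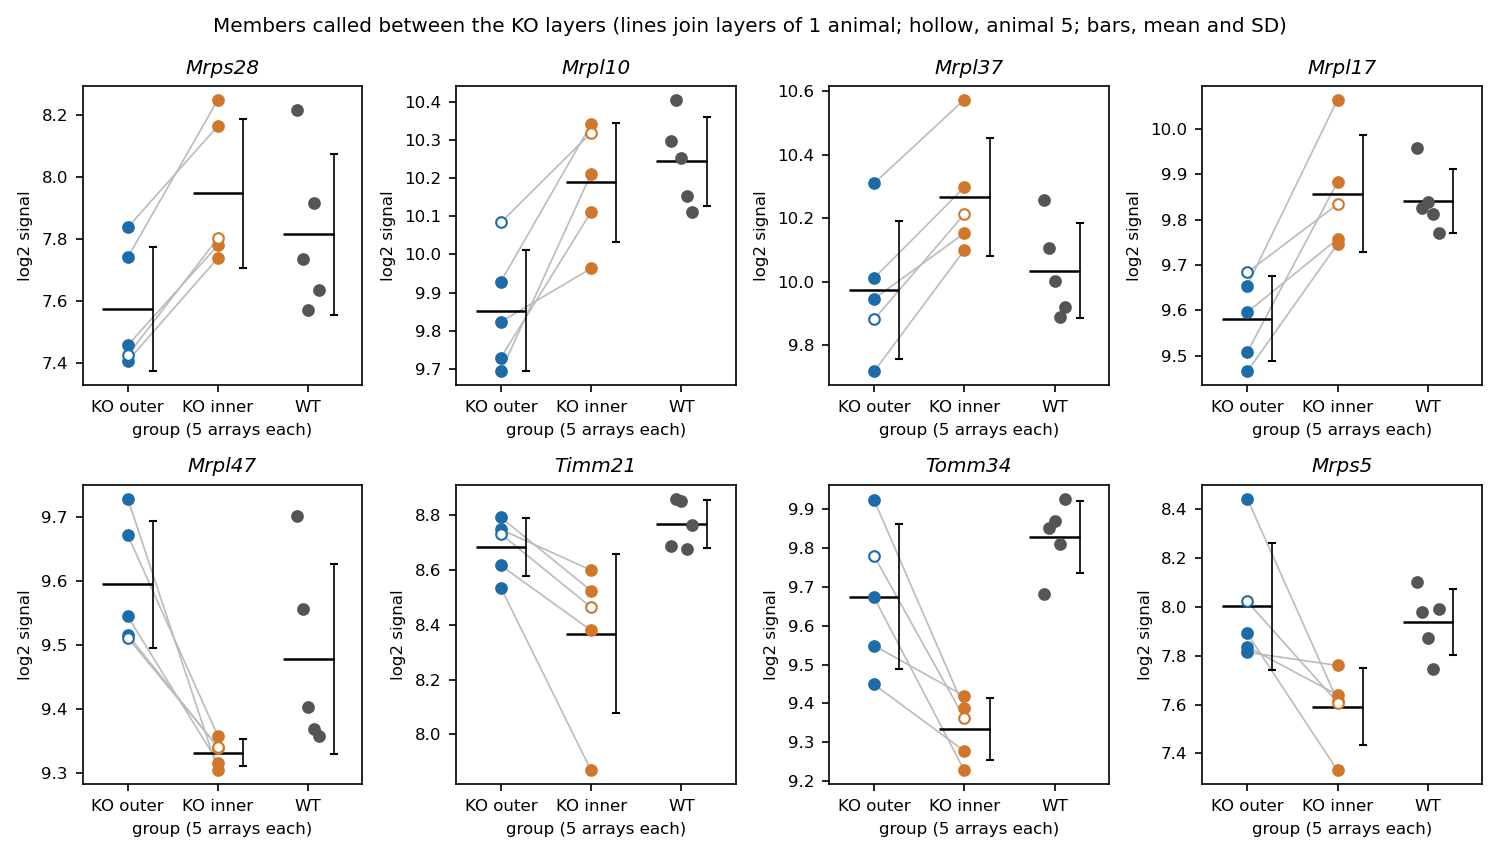
Log2 signal of the 8 members called between the KO layers, on KO outer, KO inner and WT arrays (5 each); grey lines join the layers of 1 animal, hollow points are KO animal 5, and black bars give mean and SD. Within each gene the lines of all 5 animals run the same way, and the WT arrays of Mrps28 span both layers.

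The TOM and TIM22 genes and the small TIM proteins had no called member between the layers. Their lowest adjusted p values were 0.301 for Tomm6 (-0.11 ± 0.07), 0.284 for Timm10b (-0.14 ± 0.09) and 0.398 for Timm8b (-0.09 ± 0.07). With the 3 inner and 1 outer arrays rich in muscle or bone markers left out, which leaves the paired layers of animals 3 and 4, limma called 0 members, and 6 passed an unadjusted p under 0.05. In those 2 animals the 8 differences kept their sign, at -0.33 for Mrps28, -0.28 for Mrpl10, -0.29 for Mrpl37, -0.22 for Mrpl17, 0.33 for Mrpl47, 0.25 for Timm21, 0.15 for Tomm34 and 0.13 for Mrps5. Without animal 1, 2, 3, 4 or 5 the count was 1, 1, 3, 3 and 2, and Mrps28 was called each time. The share of all genes called when arrays are left out is not given here or below.

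Other cell types also differed between the layers. Of the measured markers, 7 of 8 for radial glia and astrocytes, 4 of 5 for microglia and myeloid cells, 4 of 4 for endothelium, 4 of 5 cell cycle genes, 2 of 4 for red blood cells, 2 of 9 for skeletal muscle and 1 of 6 for bone and cartilage were called lower in the outer layer. Of the pyramidal neuron markers 4 of 6 were lower and 1 higher, and of the CA3 field markers 4 of 8 were lower and 1 higher. The part of these differences in the member values was not tested.

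Related mitochondrial genes were taken from lists chosen with earlier results of these data known. Their calls between the layers were as follows, where 21.1% of all genes were called. No mitochondrial aminoacyl-tRNA synthetase was called among 11. Of 15 ribosome assembly and rRNA factors, Mterf4 was higher (0.28 ± 0.08) and Mrm1, a methyltransferase of the ribosomal RNA, lower in the outer layer (-0.30 ± 0.07). Of 11 translation factors, Mrrf, which recycles ribosomes, was higher (0.34 ± 0.09), and of 15 import genes under other names, Grpel2, a nucleotide exchange factor of the import motor, was higher (0.42 ± 0.09). Of 12 transcription and biogenesis regulators, Polg2 and Mterf1a were higher, by 0.40 ± 0.10 and 0.24 ± 0.07. Ppargc1b, a coactivator of mitochondrial biogenesis, was the list's lowest at -0.79 ± 0.09.

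Genes often used as a gauge of mitochondrial amount were lower in part, where 11.5% of all genes were called lower. Of 11 such genes, 3 were lower in the outer layer, namely the phosphate carrier Slc25a3 (-0.45 ± 0.11), malate dehydrogenase Mdh2 (-0.30 ± 0.09) and the channel Vdac2 (-0.28 ± 0.08), and 0 were higher. Of 19 oxidative phosphorylation subunits, Cox8a, Uqcrc1 and Cox6a1 were lower, by -0.37, -0.28 and -0.26, and 0 were higher. None of 9 cytosolic ribosomal protein genes was called.

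Set against WT, the KO inner layer had members called in both directions, at a share near that of all genes. In limma, KO inner minus WT gave 26 called members of 87 (29.9%), 11 higher and 15 lower, where 29.6% of all genes were called, 13.8% higher and 15.8% lower. The median difference was -0.06 over the members and -0.07 over all genes. With median centring the split was 2 higher and 0 lower, and in the authors' scaled scores 1 higher and 5 lower. The share of all genes called in such fits is not given here or below, so these counts do not show a trait of the members. The arrays of KO animal 5 were unshifted like those of WT, so its own difference from WT is given beside each value.

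The members highest above WT divided along the array sets. Tomm70a, the TOM receptor for carrier precursors, was 7.94, 7.68, 7.86, 7.63 and 5.85 on the KO inner arrays of animals 1 to 5, against 5.44, 5.70, 5.70, 5.94 and 5.67 on WT arrays. Animals 1 to 4 lay above all WT arrays and animal 5 within their range. The difference over 5 animals was 1.70 ± 0.34 (3.25-fold, limma adjusted p = 0.00736), and animal 5 alone minus WT was 0.16.

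Mrps15, a small subunit protein shared with bacteria, was 7.50, 7.18, 7.09, 6.99 and 5.43 on KO inner arrays, against 5.73, 5.73, 5.76, 5.17 and 5.78 on WT arrays. The difference was 1.2 ± 0.33 (adjusted p = 0.0218), and animal 5 alone minus WT was -0.21. Mrpl52 was 9.52, 9.02, 8.95, 8.89 and 7.75 on KO inner arrays, against 7.85, 7.56, 7.53, 7.61 and 7.75 on WT arrays. Here too animals 1 to 4 were apart and animal 5 was not, with a difference of 1.17 ± 0.26 (adjusted p = 0.0103) that was 0.09 in animal 5.

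The same arrangement held for Mrpl20 and Mrps18c. Mrpl20, an early-assembling large subunit protein in bacteria, averaged 8.74 ± 0.70 on KO inner and 7.81 ± 0.26 on WT arrays (SD, n = 5 each), a difference of 0.93 ± 0.29 (limma adjusted p = 0.0350) that was -0.26 in animal 5. Mrps18c, an alternative form of small subunit protein S18, averaged 9.25 ± 0.71 on KO inner and 8.35 ± 0.24 on WT arrays (SD, n = 5 each), a difference of 0.90 ± 0.29 (limma adjusted p = 0.0400) that was -0.37 in animal 5. Animal 5 lay below the WT mean of both genes.

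Smaller rises were called for Mrpl22, at the wall of the exit tunnel (0.46 ± 0.15, animal 5 at -0.10), Mrpl43 (0.44 ± 0.12, 0.07, with a further probe at 0.03), Timm8a1, the mouse form of the gene mutated in human deafness-dystonia syndrome (0.38 ± 0.11, 0.09), and Mrpl50 (0.28 ± 0.09, 0.03). For Mrpl54 and Mrps26 the value of animal 5 was closer to that over 5 animals. Mrpl54 was 10.32, 10.20, 9.95, 9.82 and 9.95 on KO inner arrays, against 9.84, 9.77, 9.55, 9.56 and 9.60 on WT arrays, with a difference of 0.38 ± 0.11 (adjusted p = 0.0288) that was 0.28 in animal 5. Mrps26 differed by 0.31 ± 0.10 (adjusted p = 0.0391) and by 0.30 in animal 5, and its further probe by 0.46 (adjusted p = 0.0118). Of the 11 higher members, these 2 had the largest values in animal 5.

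**Figure D3:**
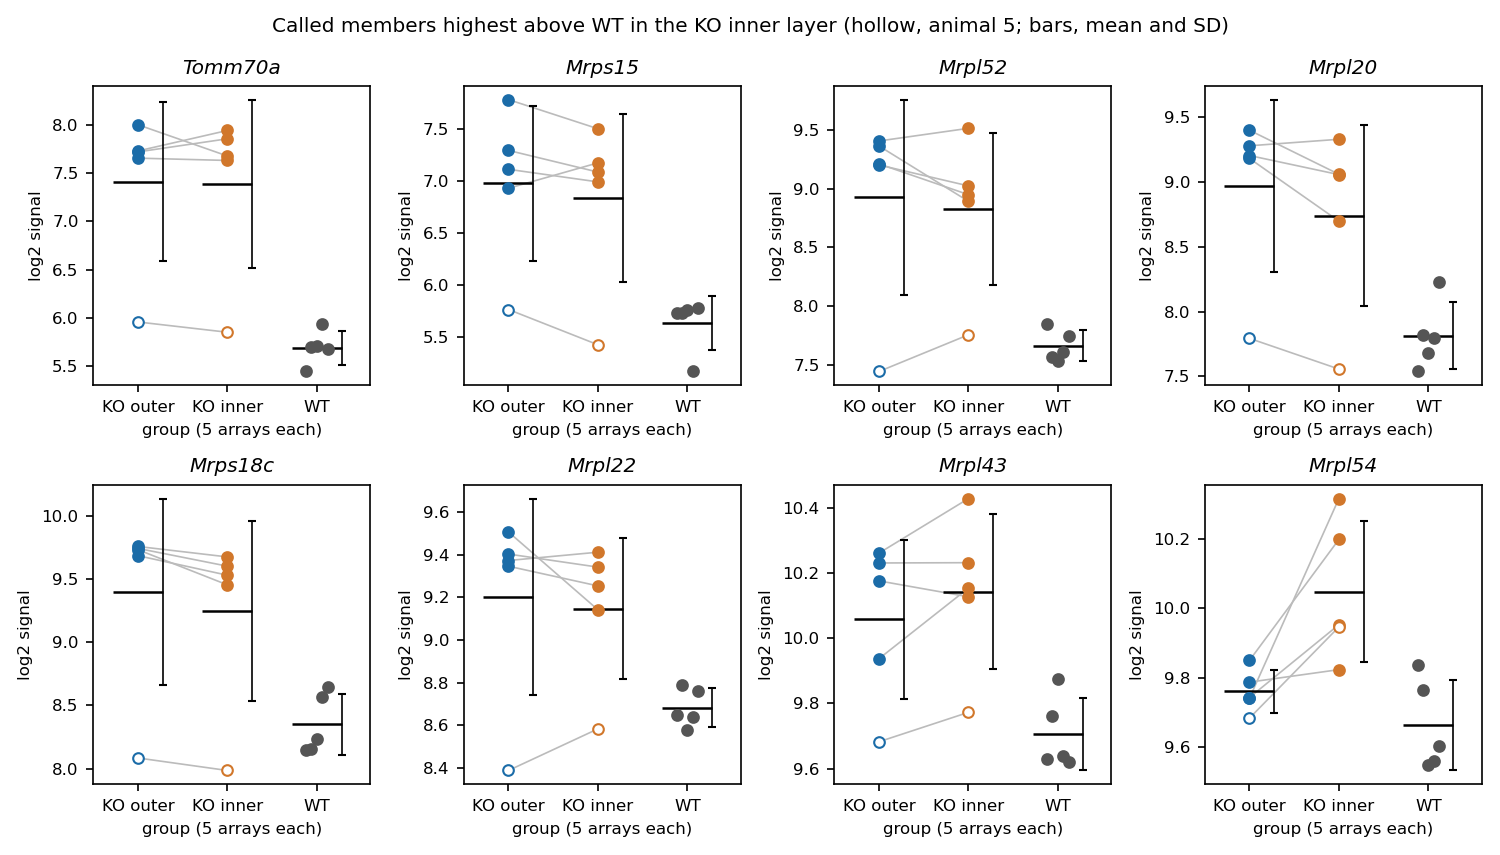
Log2 signal of the 8 called members with the largest rise over WT in the KO inner layer, on KO outer, KO inner and WT arrays (5 each), with hollow points for KO animal 5 and bars for mean and SD. In Tomm70a, Mrps15, Mrpl52, Mrpl20, Mrps18c, Mrpl22 and Mrpl43 the hollow points lie below those of KO animals 1 to 4.

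Members below WT included the receptor of TIM23 and proteins of both ribosomal subunits. Timm50, which receives presequences from TOM, was 8.24, 8.15, 8.08, 8.13 and 8.36 on KO inner arrays, against 8.75, 8.73, 8.74, 8.57 and 8.83 on WT arrays. The groups did not overlap, the difference was -0.54 ± 0.09 (1.45-fold lower, limma adjusted p = 0.00333), and animal 5 was also low, at -0.36 from WT.

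Tomm34 was 9.39, 9.23, 9.28, 9.42 and 9.36 on KO inner arrays, against 9.68, 9.85, 9.87, 9.81 and 9.93 on WT arrays. Again every KO inner array was below every WT array, by -0.49 ± 0.08 (adjusted p = 0.00360) and by -0.47 in animal 5, while the further probe gave -0.18 (adjusted p = 0.210). Mrpl58, a ribosome-borne hydrolase that frees stalled ribosomes, was 7.79, 7.63, 7.72, 7.55 and 7.84 on KO inner arrays, against 8.26, 8.25, 8.10, 8.12 and 8.05 on WT arrays. The groups were apart, with a difference of -0.45 ± 0.09 (adjusted p = 0.00643) and -0.32 in animal 5.

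Mrps25, a small subunit protein found in mitochondria only, was 7.70, 7.47, 7.65, 7.60 and 7.68 on KO inner arrays, against 7.95, 8.18, 7.92, 7.93 and 7.91 on WT arrays. No KO inner array reached WT, and the difference was -0.35 ± 0.09 (adjusted p = 0.0146), with -0.29 in animal 5. Of its 2 further probes 1 gave -0.26 and the other 0.49, with adjusted p of 0.102 and 0.116. Mrpl51 had the largest fall, -0.57 ± 0.17 (adjusted p = 0.0334), but its inner array 2 stood low at 5.19 against 6.02 to 6.22 for the other KO inner arrays, and WT lay at 6.34 to 6.60. Its further probe gave -0.19 (adjusted p = 0.485).

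The other 10 calls lay between -0.43 and -0.25. They were Mrpl1, part of the stalk that guides spent tRNA (-0.43 ± 0.12), Timm21 (-0.40 ± 0.13), Mrpl14 (-0.40 ± 0.12), Mrpl2, next to the catalytic centre (-0.36 ± 0.10), Mrps5 (-0.35 ± 0.10), Mrps22 (-0.34 ± 0.10), Mrps11 (-0.33 ± 0.10), Mrps9 (-0.33 ± 0.10), Mrps31 (-0.28 ± 0.08) and Mrpl49 (-0.25 ± 0.08). For each the 5 KO inner arrays were below the WT mean. Animal 5 alone ranged here between -0.33 for Mrps5 and Mrpl49 and -0.02 for Mrps11. Further probes were called lower for Mrps5 (-0.56, adjusted p = 0.00783), for 1 of 2 of Timm21 (-0.39, adjusted p = 0.0342; the other -0.58, adjusted p = 0.0647) and for 1 of 2 of Mrps31 (-0.25, adjusted p = 0.0432; the other 0.03, adjusted p = 0.852). They were not called for Mrps11 (-0.18) or Mrpl49 (3 probes at -0.16, -0.14 and -0.12).

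**Figure D4:**
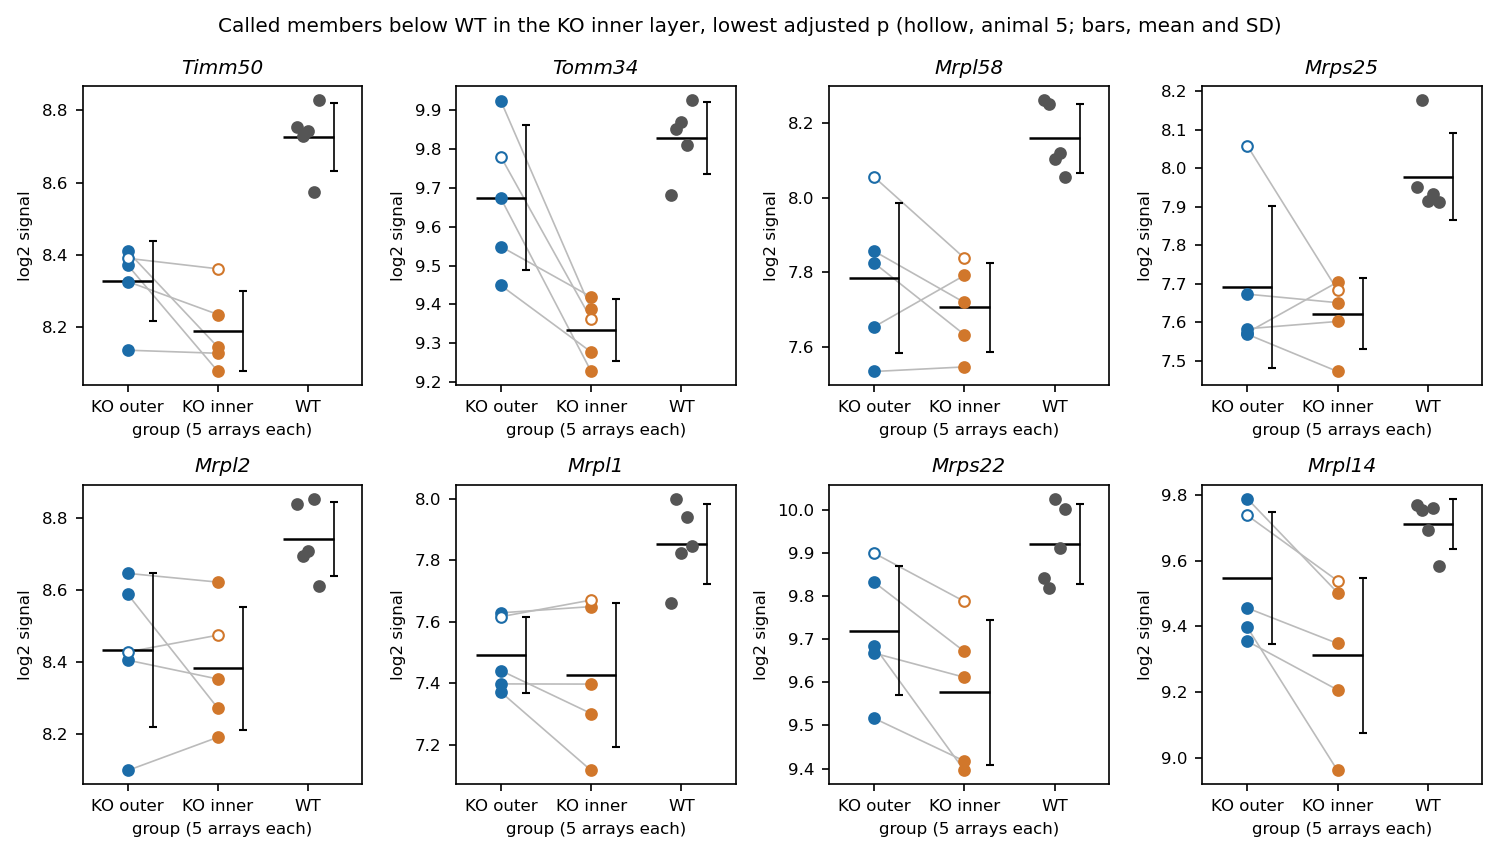
Log2 signal of the 8 called members with the lowest adjusted p below WT in the KO inner layer, on KO outer, KO inner and WT arrays (5 each), with hollow points for KO animal 5 and bars for mean and SD. In Timm50, Tomm34, Mrpl58, Mrps25, Mrps22 and Mrpl14 all KO inner arrays, the hollow point included, lie below all WT arrays; in Mrpl2 and Mrpl1 the ranges overlap.

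Over the 11 higher members the median difference was 0.46 with 5 KO animals and 0.07 with animal 5 alone, and over the 15 lower members it was -0.36 and -0.29. Over all genes called higher those medians were 0.69 and 0.25, and over all genes called lower -0.46 and -0.27. Over all 87 members animal 5 alone minus WT had a median of -0.02, against -0.01 over all genes. With 1 KO animal against 5 WT, the unshifted arrays hold no spread among KO animals. Leaving out KO inner array 5 gave 32 called members, and leaving out any other single array gave 8 (WT array 4) to 17 (WT array 5). Without the share of all genes called in the same fits, these counts do not show a trait of the members. Leaving out the arrays rich in muscle or bone markers kept KO inner arrays 3 and 4 and WT arrays 4 and 5. There 7 members were called, 6 higher and 1 lower, the lower one being Timm50 (-0.60, limma adjusted p = 0.0415). All KO arrays kept were shifted and all WT arrays unshifted, so genotype and array set cannot be told apart in that fit. Markers of the dissected neurons and of other cells also differed from WT in KO inner CA3. Higher were 5 of 6 pyramidal neuron, 5 of 8 CA3 field and 6 of 8 radial glia and astrocyte markers, with 1 of the latter lower. Also higher were 2 of 4 endothelial, 1 of 5 microglia and myeloid, 1 of 4 red blood cell and 3 of 5 cell cycle genes. Of the skeletal muscle markers 0 of 9 were called (median -1.21), and of the bone and cartilage markers 0 of 6 (median 0.62). The part of these differences in the member values was not tested.

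The KO outer layer was compared with the same WT arrays, so these values are not independent of those above. KO outer minus WT in limma gave 14 called members of 87 (16.1%), 6 higher and 8 lower, where 15.3% of all genes were called, 8.38% higher and 6.9% lower. The median was -0.10 over the members and -0.08 over all genes. With median centring these medians were 0.04 and 0.06, a change of over 0.1 that reverses the sign, and the split was 5 higher and 1 lower. In the authors' scaled scores it was 1 higher and 3 lower.

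Those higher were again Tomm70a, at 7.73, 8.0, 7.72, 7.66 and 5.96 on KO outer arrays (1.72 ± 0.33, adjusted p = 0.0210), then Mrps15 (1.34 ± 0.31), Mrpl52 (1.27 ± 0.33), Mrpl20 (1.16 ± 0.28), Mrps18c (1.05 ± 0.30) and Timm10 (0.42 ± 0.12). Timm10, which pairs with Timm9 in the main small TIM chaperone, was 9.43, 9.33, 9.29, 9.42 and 8.92 on KO outer arrays, against 8.92, 8.75, 8.67, 9.06 and 8.91 on WT arrays. In all 6 genes animal 5 lay apart from animals 1 to 4, at 0.27, 0.13, -0.22, -0.02, -0.27 and 0.06 from WT.

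Those lower were Mrpl55 (-0.44 ± 0.13), Mrpl38 (-0.41 ± 0.12), Timm50 (-0.40 ± 0.09), Mrpl10 (-0.39 ± 0.10), Mrpl58 (-0.37 ± 0.11), Mrpl1 (-0.36 ± 0.09), Mrpl49 (-0.30 ± 0.09) and Mrpl17 (-0.26 ± 0.08). Timm50 was 8.33, 8.41, 8.37, 8.14 and 8.39 on KO outer arrays and so below all WT arrays (adjusted p = 0.0244), with animal 5 at -0.33. Mrpl17 did not overlap with WT, at 9.77 to 9.96, and Mrpl10, at 10.11 to 10.41 in WT, did not either. The further probe of Mrpl10 gave 0.03 (adjusted p = 0.848). Over the 8 genes the median was -0.38 with 5 animals and -0.17 with animal 5 alone, and over the 6 higher genes 1.21 and 0.02.

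**Figure D5:**
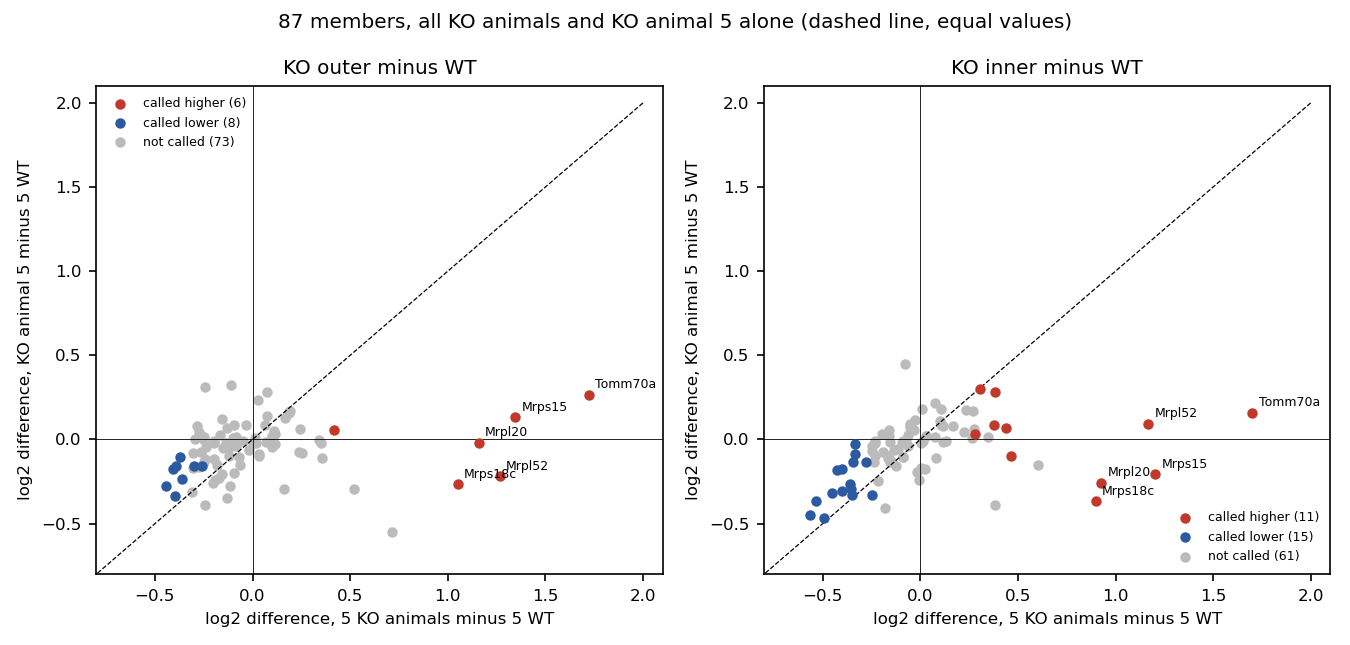
Log2 difference from WT of the 87 members, over all 5 KO animals (horizontal) and for KO animal 5 alone (vertical), in KO outer (left) and KO inner CA3 (right), with called members in red (higher) and blue (lower). Tomm70a, Mrps15, Mrpl52, Mrpl20 and Mrps18c lie far to the right, between -0.37 and 0.27 on the vertical axis, and called lower members lie below 0 on both axes.

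With limma the outer count changed when single arrays were left out. It was 0 without KO outer array 2, 3 or 4 (26, 26 and 29 at an unadjusted p under 0.05), 5 without array 1 and 31 without array 5. It was 4, 1, 2, 2 and 7 without WT arrays 1 to 5. Without the share of all genes called in the same fits, these counts do not show a trait of the members. Over all 87 members the KO outer array of animal 5 alone minus WT had a median of -0.04, against -0.01 over all genes. Leaving out the arrays rich in muscle or bone markers kept KO outer arrays 2 to 5 and WT arrays 4 and 5. There limma called 0 members, with 6 at an unadjusted p under 0.05. Of the markers of other cells, 2 of 9 for skeletal muscle were lower than WT in KO outer CA3 (median -3.41), and 0 of 6 for bone and cartilage were called (median -1.59). Pyramidal neuron markers had 1 higher and 2 lower of 6, radial glia and astrocyte markers 2 higher and 1 lower of 8, and CA3 field markers 1 higher of 8. Their part in the member values was not tested.

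With both layers of a KO animal averaged, KO animals minus WT in limma gave 17 called members of 87 (19.5%), 9 higher and 8 lower, where 22.5% of all genes were called, 11.4% higher and 11.1% lower. The median was -0.08 over the members and over all genes, and 0.00 and 0.03 with median centring, where the split was 6 higher and 0 lower. The scaled scores gave 1 higher and 3 lower. Higher were Tomm70a (1.71 ± 0.33), Mrps15 (1.27 ± 0.31), Mrpl52 (1.22 ± 0.29), Mrpl20 (1.04 ± 0.28), Mrps18c (0.98 ± 0.30), Mrpl43 (0.39 ± 0.12), Timm10 (0.38 ± 0.12), Timm8a1 (0.37 ± 0.12) and Mrpl50 (0.26 ± 0.08). Lower were Timm50 (-0.47 ± 0.08), Mrpl58 (-0.41 ± 0.09), Mrpl1 (-0.39 ± 0.10), Mrpl2 (-0.33 ± 0.10), Tomm34 (-0.32 ± 0.08), Mrps25 (-0.32 ± 0.09), Mrpl49 (-0.27 ± 0.07) and Mrps31 (-0.23 ± 0.07). Over the 9 higher members the median was 0.98 with 5 animals and -0.01 with animal 5 alone, and over the 8 lower members -0.33 and -0.23. The count was 0 without animal 2, 3 or 4 (27, 34 and 30 at an unadjusted p under 0.05 in limma), 7 without animal 1 and 34 without animal 5. It was 10, 6, 6, 5 and 13 without WT arrays 1 to 5. The share of all genes called in these fits is not given, so the counts do not show a trait of the members. Leaving out the arrays rich in muscle or bone markers kept KO animals 3 and 4 and WT arrays 4 and 5, and the count was 9, of which 7 higher. There too genotype and array set cannot be told apart. Higher in KO animals were 5 of 8 radial glia and astrocyte, 3 of 8 CA3 field, 1 of 6 pyramidal neuron, 1 of 5 microglia and myeloid and 2 of 5 cell cycle genes, while 0 of 9 muscle genes were called at a median of -2.29. The part of these differences in the member values was not tested.

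Probes of the same gene disagreed in several limma fits, and the cases given here are not a full list. For Timm9 in KO animals minus WT, 1 probe was called higher (0.34, adjusted p = 0.0480) and another lower (-0.31, adjusted p = 0.0384), while the brightest gave -0.13. The second probe of Mrpl47 was detected on 8 arrays, 4 KO outer and 4 KO inner. KO animal 5 read 4.50 on its outer and 4.58 on its inner array, within the 4.27 to 4.60 of WT. Animals 1 to 4 read 5.28 to 5.79. This probe counted as above background only through KO arrays on which it was high, so a test of it against WT gives no support for a rise. Its differences from WT were 0.76, 0.91 and 0.84 in KO inner CA3, KO outer CA3 and KO animals, where the brighter probe was not called. The second probe of Mrpl37 was higher than WT in KO inner and KO outer CA3, by 0.43 and 0.37, with adjusted p of 0.0247 and 0.0376, where the brighter one gave 0.23 and -0.06. In KO animals minus WT the further probe of Mrpl43 gave -0.01 (adjusted p = 0.944) and that of Tomm34 -0.01 (adjusted p = 0.938), where the brighter ones were called. The second probe of Mrpl10 was higher than WT in KO inner CA3 by 0.35 (adjusted p = 0.0102), where the brighter one gave -0.05. For Mrps25 a further probe was higher than WT in KO outer CA3 by 0.73 (adjusted p = 0.0420), where the brightest gave -0.29 and the other -0.32. In KO animals minus WT it gave 0.61, where the brightest was called lower. The further probes of Timm10b were lower than WT in KO outer CA3, by -0.42 and -0.34 (adjusted p = 0.0394 and 0.0360), where the brightest gave -0.13. A dim probe of Mrpl13, detected on no WT array, gave 0.79 there, where the brighter one gave -0.05.

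Taking the arrays by set alone, 12 of the 87 members (13.8%) read higher on each of the 8 shifted arrays than on any of the 7 unshifted arrays, against 9.02% of all genes. They were Mrpl20, Mrpl22, Mrpl43, Mrpl50, Mrpl52, Mrps6, Mrps15, Mrps18c, Timm8a1, Timm10, Tomm22 and Tomm70a. For Tomm22 the values were 5.72, 6.28, 6.18, 5.79 and 4.42 on KO outer arrays and 6.0, 5.58, 5.90, 5.56 and 4.81 on KO inner arrays, against 4.50 to 5.47 in WT, and its difference of 0.60 in KO inner CA3 was not called (adjusted p = 0.0693). The opposite order, each shifted array below each unshifted one, occurred in 0 members, against 3.41% of all genes. Every member called higher than WT in a KO layer, apart from Mrpl54 and Mrps26, was among the 12.

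Related lists moved against WT as follows, where 29.6% of all genes were called in KO inner and 15.3% in KO outer CA3. Of 15 ribosome assembly and rRNA factors, 6 were lower in KO inner CA3 and 0 higher, with Mterf4 at -0.57 ± 0.11, Rpusd4 at -0.53 ± 0.10 and Noa1 at -0.39 ± 0.08, and animal 5 alone at -0.27, -0.28 and -0.27. Of 11 translation factors 4 were lower and 1 higher, with the elongation factors Tufm at -0.49 ± 0.13, Gfm2 at -0.40 ± 0.11 and Gfm1 at 0.33 ± 0.10. Of 12 regulators 5 were lower and 0 higher, among them the transcription factor Nrf1 at -0.62 ± 0.13, with animal 5 at -0.57. In KO outer CA3 the counts were 0 higher and 1 lower, 0 and 3, and 2 and 5, in the same order of lists, with Nrf1 at -0.52 ± 0.13.

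The matrix chaperones Hspd1 and Hspe1 were higher in KO inner CA3, by 1.24 ± 0.22 and 1.53 ± 0.42, and animal 5 alone was at 0.29 and -0.31. They were the called genes among 15 import genes under other names. Ptcd3, a small subunit protein by another name, was higher by 0.71 ± 0.16 and by 0.15 in animal 5. Of the 11 genes of mitochondrial amount 6 were higher and 0 lower, led by Slc25a3 at 1.74 ± 0.27 and Vdac2 at 0.79 ± 0.18, with animal 5 at 0.57 and 0.07. Of 19 oxidative phosphorylation subunits 6 were higher and 0 lower, led by Atp5a1 at 1.73 ± 0.33 and Cox7a2 at 1.08 ± 0.31, with animal 5 at 0.25 and -0.20. Of 9 cytosolic ribosomal protein genes Rpl5 was higher by 0.78 ± 0.16 and Rps3 by 0.38 ± 0.11, with animal 5 at 0.11 and 0.08. Of 11 mitochondrial aminoacyl-tRNA synthetases, Fars2 was lower, by -0.28 ± 0.09.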

How the data were processed

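The authors used limma per the submitters' processing notes, its role not given in the sources used here; the annotation build and bead summary are not given either. The deposited log2 signals, called normalized in the table's name, had array medians from 6.47 (KO outer 5) to 6.96 (KO outer 4). They had thus not been brought to a common median. Whether background had been subtracted from them was not tested. A second deposited table holds scores, each the log2 signal minus the array's median, over its SD. On 8 arrays the scores depart from this, which is read here as a shift. Of the entries with no probe, 1116 at background were used as negative controls here and 8 brighter ones were not. Signals were corrected and normalized with neqc (normexp, quantile, offset 16) of limma 3.58.1 in R 4.3.3, and a detection p was the fraction of negative control entries reaching a probe's signal, with 1 added to both numbers. This left 11998 of 25697 probes, and a gene is represented by its probe of highest mean level. Differences were fitted with lmFit and eBayes, two-sided, with Benjamini-Hochberg adjustment over the 11998 probes and a threshold of 0.05. KO outer minus KO inner used the animal as a block, because both layers came from the same animals; the paired arrays' deviations correlated at 0.56, 0.26, 0.39, 0.40 and 0.77. Arrays are the replicates, and their number limits the precision.

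Symbols came from the platform annotation, which named 21 member probes that the table's own definitions do not; all 99 genes matched RefSeq by gene identifier. On simulated data with 11998 probes the recovery at a difference of 0.5 log2 units was 50%, 43%, 32% and 41% for KO outer minus KO inner, KO inner minus WT, KO outer minus WT and KO animals minus WT, and at 1.0 it was 86%, 77%, 78% and 87%. Each simulation changed 100 probes per size, fewer than the genes called in the data. Its noise was independent and it held no difference between array sets, so recovery in the data may differ. Named were up to 10 called members per direction and comparison, the brightest and lowest-p member of each role and up to 4 called genes per related list; further called members are named after their values were seen. The members, lists and tests were chosen with earlier results of these data known. Alternatives were other normalizations, filters, probe rules and sets of arrays.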

Additional observations from a re-analysis of the deposited data

Results flagged for a closer look

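Within each group of 5 arrays, the 34 members called in any comparison were screened for a single array far from the others, where 5% of groups would show one by chance. Of 102 groups 14 did. KO animal 5 accounted for 10 of them. Its outer array was the lowest of its group for Mrpl20 (7.79), Mrpl22 (8.39), Mrpl52 (7.44), Mrps18c (8.08), Timm10 (8.92) and Tomm70a (5.96), and the highest for Mrps25 (8.06). Its inner array was the lowest for Mrps15 (5.43), Mrps18c (7.99) and Tomm70a (5.85). Elsewhere KO inner array 2 was lowest for Mrpl51 (5.19), WT array 4 lowest for Mrps15 (5.17), WT array 5 lowest for Mrps11 (9.34) and WT array 2 highest for Mrps25 (8.18). Leaving KO animal 5 out raised the counts of called members against WT, as given above.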

How the results depend on the processing

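The count of members called in limma moved by over 1.5 times under many alternatives. The share of all genes called under each alternative is not given, so these counts do not show whether members moved more than other genes. For KO outer minus KO inner (8) it was 0 with median centring (no background correction), 0 without the muscle-rich or bone-rich arrays and 0 with no replicate block, with 6, 6 and 10 at an unadjusted p under 0.05, 3 with no filter on dim probes and 2 within the shifted arrays; leaving out 1 animal gave 1 to 3. For KO inner minus WT (26) it was 2 with median centring, 6 with the authors' scores, 7 without the muscle-rich or bone-rich arrays, and 0 with the array set as a term, within the unshifted arrays, and over all 15 arrays with array set and a random animal block in the model (4, 4 and 3 unadjusted); leaving out 1 array gave 8 to 32. For KO outer minus WT (14) it was 22 with quantile normalization alone, 6 with median centring, 4 with the authors' scores, 6 with no filter, and 0 without the muscle-rich or bone-rich arrays or with the same 3 array-set fits (6, 2, 1 and 2 unadjusted); leaving out 1 array gave 0 to 31. For KO animals minus WT (17) the values were 28, 6, 4 and 10 for the first 4 of those settings, 9 without the muscle-rich or bone-rich arrays, and 0 with the array set as a term or within the unshifted arrays (1 unadjusted in both); leaving out 1 array gave 0 to 34. KO and WT animals share numbers but are different animals, and their deviations did not pair. The replicate block gave 10 calls for KO inner minus WT, and 0 for KO outer minus WT and KO animals minus WT (24 and 31 unadjusted).

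Some members turned sign, none of them past the test (SE 0.14 to 0.26 in the array-set fits). With the array set as a term and within the unshifted arrays, which both come down to KO animal 5 alone against WT, KO inner minus WT was -0.26 for Mrpl20, -0.10 for Mrpl22, -0.21 for Mrps15 and -0.37 for Mrps18c; KO outer minus WT was -0.0194 for Mrpl20, -0.22 for Mrpl52 and -0.27 for Mrps18c; and KO animals minus WT was -0.14 for Mrpl20, -0.0623 for Mrpl52, -0.0377 for Mrps15, -0.32 for Mrps18c and -0.0129 for Timm8a1. Over all 15 arrays KO inner minus WT was -0.25 for Mrpl20, -0.23 for Mrpl22, -0.11 for Mrpl52, -0.11 for Mrps15, -0.39 for Mrps18c and -0.00346 for Timm8a1, and KO outer minus WT was -0.0220 for Mrpl20, -0.0131 for Mrpl52 and -0.24 for Mrps18c. With the authors' scores KO inner minus WT of Mrpl22 was -0.0207, and with the mean of all probes KO animals minus WT of Mrps25 was 0.000102. The cause of these changes was not tested. Signals near background, as for Tomm22, Mrps27 and Mrpl45, limit what can be seen of those genes.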
